A study of Prunus armeniaca and Prunus mume with 8 samples.

Results

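The 9 array probes described here stand for defence proteins of Prunus fruit. There are 5 lipid transfer proteins, 2 thaumatin-like proteins, 1 class IV chitinase and 1 disease resistance protein of the TIR-NBS-LRR class. They are all the probes whose description in the authors' deposited lists of differing genes names one of these proteins, with PR-10 proteins and their allergen relatives left out, and 4 of them (AY093700.1, X96714.1, AF362987.1 and EF640680.1) were also chosen by identifier. The array holds 10384 probes, of which 658 have a description in these lists and 241 a description that names a protein. Because only probes that differed at least 2-fold in one of the authors' comparisons were described, every comparison below helped to choose the members, so their differences are given as descriptions and none of them is supported by a test.

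Fruit RNA of Japanese apricot (Prunus mume) and apricot (Prunus armeniaca) was hybridised to 8 Agilent arrays, all on 1 slide and read in a single colour. The series compares the 2 species in fruit development. Japanese apricot was represented by the cultivars Ruantiaohongmei and Xiyeqing and apricot by Manao and Zhenkui, with 2 arrays per cultivar. No treatment, transgene or mutant was involved, and all cultivars were sampled as fruit between week 3 and week 13 after bloom, over stages 1 to 8, covering early growth, stone hardening and late growth. Each array is labelled as mixed stages. The mixture behind an array and the trees behind a replicate are not stated in the labels, so the spread between arrays may be technical or may include different mixtures of stages.

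Lipid transfer proteins are small, secreted, cysteine-rich proteins that carry lipids in a hydrophobic pocket, and they have been linked to cuticle formation and to defence; the main allergen of peach skin belongs to this family. Thaumatin-like proteins are stable secreted proteins, many of them antifungal, that accumulate in ripening fruit of several species, and class IV chitinases cut the chitin of fungal cell walls. TIR-NBS-LRR proteins are receptors inside the cell that set off defence after sensing a pathogen's effectors.

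Levels are log2 processed signals relative to the 75th percentile of the same array, so that a level of 0 is that percentile and 1 unit is a 2-fold change in signal. Levels of different probes cannot be set against each other. Each member has 1 spot per array, and all 9 were well above background and unsaturated on all 8 arrays. The arrays detected 7807 to 8982 probes well above background, and the signal of the median spot was 6.35 to 8.15 times its background. Manao and Ruantiaohongmei occupied slide row 1, and Xiyeqing and Zhenkui row 2. As a check of the tissue label, 23 of 29 probes for flesh growth and ripening were well above background on all arrays. Their summed signal, in units of the 75th percentile, was 187 to 614 in P. mume and 210 to 536 in P. armeniaca. Both green tissue probes were also well above background on all arrays, with a summed signal of 50.8 to 94.7 in P. mume and 88.8 to 222 in P. armeniaca. So were all 3 probes sought for lignin of the stone, at 18.2 to 63.9 and 14.0 to 26.4. These were found by names of enzymes, which do not tie them to the stone. The part of such tissue differences in the members' species differences was not tested. The search for seed proteins by name found 1 described probe, an oleosin. Its signal was 0.0184 to 2.09 in P. mume and 0.0118 to 0.0247 in P. armeniaca. It was well above background on 4 P. mume arrays and 1 P. armeniaca array.

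**Figure D1:**
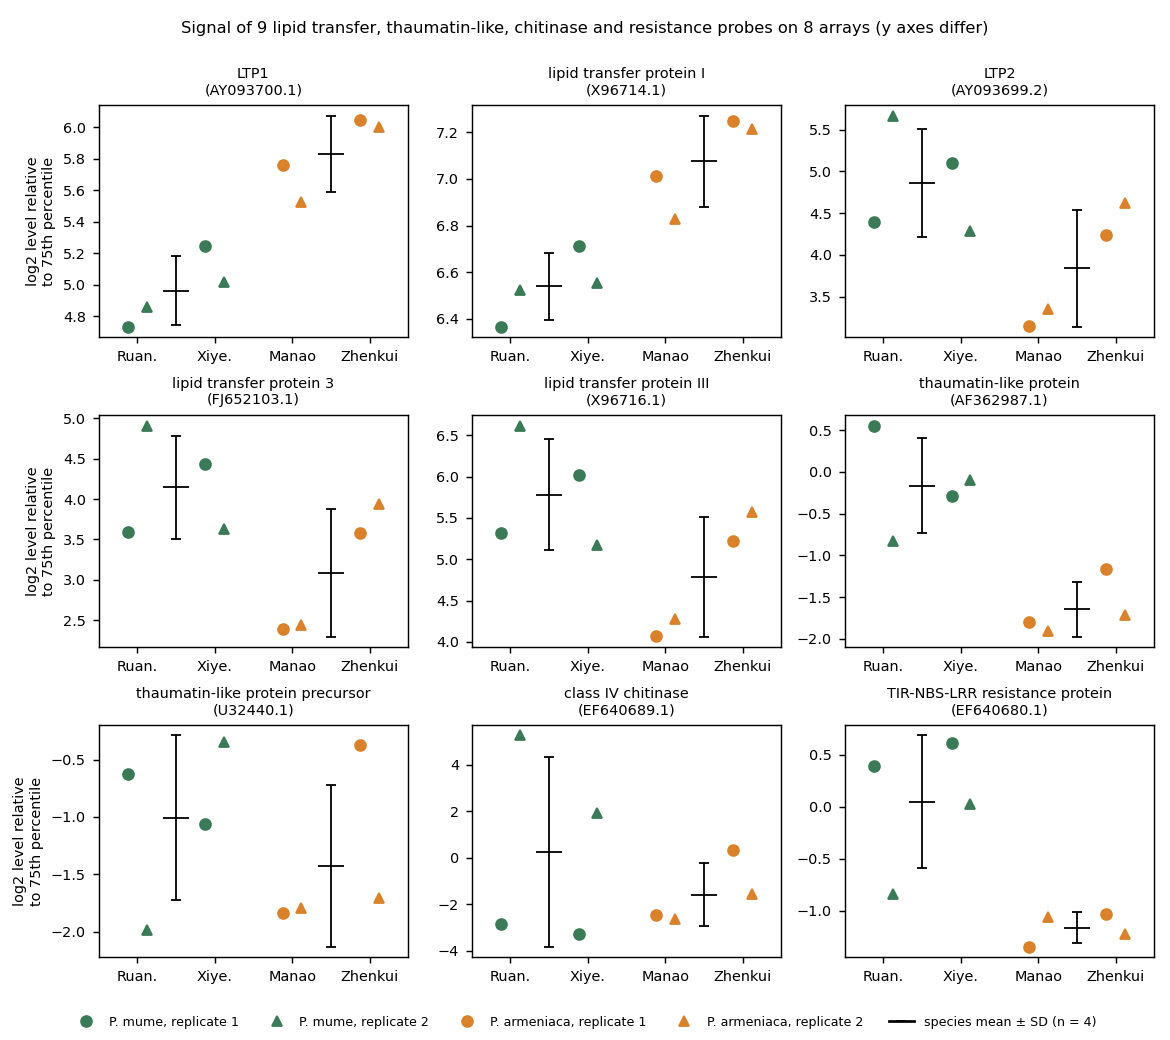
Levels of the 9 probes on each array (log2 signal relative to the array's 75th percentile; y axes differ between panels), by cultivar, with P. mume in green and P. armeniaca in orange, circles for replicate 1 and triangles for replicate 2. Horizontal marks and bars give the mean and SD of the 4 arrays of a species. The species do not overlap for LTP1, lipid transfer protein I, the thaumatin-like protein AF362987.1 and the TIR-NBS-LRR protein, and the class IV chitinase spreads from -3.30 to 5.25 within P. mume.

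Within the lipid transfer family, 2 probes were lower in P. mume and 3 overlapped between the species. The probes for LTP1 of peach (AY093700.1) and lipid transfer protein I of almond (X96714.1) were the lower ones, while those for LTP2 of peach (AY093699.2), lipid transfer protein 3 of almond (FJ652103.1) and lipid transfer protein III of almond (X96716.1) had higher means there but did not pass the threshold of the species fit. The thaumatin-like protein of peach (AF362987.1) and the TIR-NBS-LRR protein of almond (EF640680.1) were higher in P. mume on every array. The second thaumatin-like protein, from sweet cherry (U32440.1), and the class IV chitinase of almond (EF640689.1) overlapped between the species. In a limma fit over 9125 probes with cultivar as a random block, 4 of the 9 members passed an adjusted p of 0.05, with 2 higher and 2 lower in P. mume, where 36.6% of all tested probes passed, 15.1% higher and 21.5% lower. The arrays of the species did not overlap for 4 members, where 39.9% of probes did not overlap. The P. mume arrays lay above for 2 members, where 16.3% of probes did so, and below for 2, where 23.7% did so. The median log2 difference was 1.02 over the members and -0.11 over all tested probes. Since the same comparison chose the members, nothing is read from these shares.

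Fruit tissue was measured in bulk, so fewer cells of a type and less RNA per cell cannot be told apart. The descriptions name sequences of peach, almond and sweet cherry, and for a probe based on another species the amount of transcript and its match to the probe cannot be told apart between P. mume and P. armeniaca.

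LTP1 gave the steadiest difference among the lipid transfer proteins. Its log2 level was 4.73 and 4.86 in Ruantiaohongmei, 5.24 and 5.02 in Xiyeqing, 5.76 and 5.52 in Manao, and 6.05 and 6.00 in Zhenkui. The 4 cultivars took separate ranges in that order, with Ruantiaohongmei lowest, and the arrays of no cultivar overlapped those of another. The gap between Manao and Zhenkui depended on the scaling. Their log2 difference of -0.38 was -0.14 with quantile normalization and with the authors' deposited log2 table. The mean level was 4.96 ± 0.22 (SD, n = 4) in P. mume and 5.83 ± 0.24 (SD, n = 4) in P. armeniaca, a log2 difference of -0.87 ± 0.19 (SE), or 1.83-fold lower signal in P. mume. The 2 arrays of a cultivar were close for this probe, with a within-cultivar SD of 0.12, and 91.7% of all tested probes varied more.

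Lipid transfer protein I of almond followed LTP1 closely at smaller differences. Its log2 level was 6.37 and 6.52 in Ruantiaohongmei, 6.71 and 6.56 in Xiyeqing, 7.01 and 6.83 in Manao, and 7.25 and 7.21 in Zhenkui. The cultivars again held separate ranges in the same order. The mean level was 6.54 ± 0.14 (SD, n = 4) in P. mume and 7.07 ± 0.20 (SD, n = 4) in P. armeniaca, a log2 difference of -0.54 ± 0.17 (SE), or 1.45-fold lower signal in P. mume. Its call in the limma fit was lost when any one array of Ruantiaohongmei, Xiyeqing or Zhenkui was left out, with an adjusted p of up to 0.0901. The authors' deposited lists hold both probes for Ruantiaohongmei against Zhenkui alone. The folds were 2.10 for LTP1 and 2.11 for lipid transfer protein I, both lower in Ruantiaohongmei.

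The other 3 lipid transfer probes shared a different pattern, in which Manao stood apart from the other 3 cultivars. For LTP2 the log2 level was 3.15 and 3.35 in Manao, 4.24 and 4.62 in Zhenkui, 5.10 and 4.29 in Xiyeqing, and 4.39 and 5.66 in Ruantiaohongmei. Both Manao arrays lay below all others, and the remaining 3 cultivars overlapped. The mean level was 4.86 ± 0.65 (SD, n = 4) in P. mume and 3.84 ± 0.70 (SD, n = 4) in P. armeniaca, a log2 difference of 1.02 ± 0.42 (SE).

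Lipid transfer protein 3 had a log2 level of 2.39 and 2.44 in Manao, 3.58 and 3.94 in Zhenkui, 4.44 and 3.63 in Xiyeqing, and 3.60 and 4.91 in Ruantiaohongmei. Lipid transfer protein III had 4.07 and 4.28 in Manao, 5.21 and 5.57 in Zhenkui, 6.02 and 5.17 in Xiyeqing, and 5.32 and 6.62 in Ruantiaohongmei. Manao was lowest for both, and the species overlapped through Zhenkui. The species differences were 1.06 ± 0.44 (SE) and 1.00 ± 0.43 (SE) on the log2 scale, both with n = 4 arrays per species. None of these 3 probes passed the threshold in the species fit, and all 3 passed it when Zhenkui replicate 2 was left out, which brought the members called to 6 of 9.

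**Figure D2:**
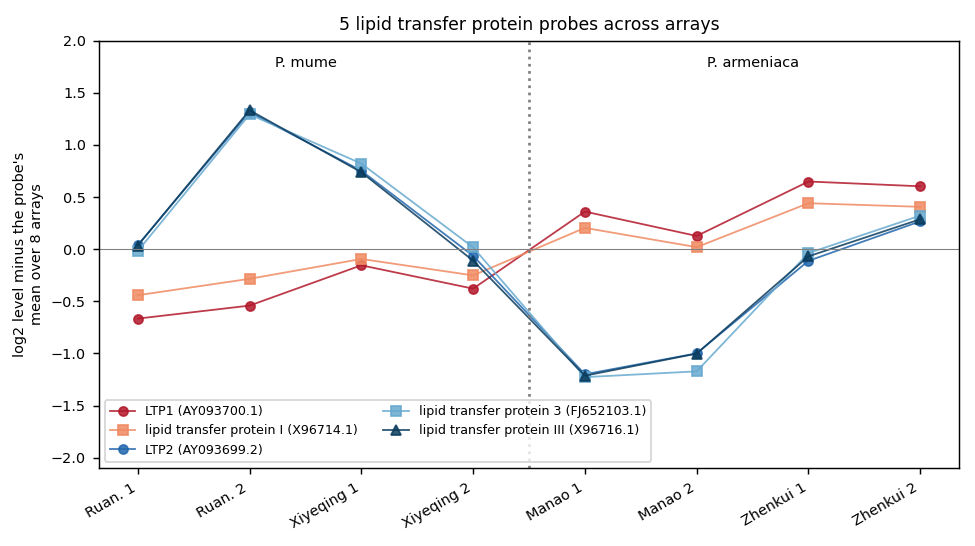
Log2 level of each lipid transfer probe on each array minus that probe's mean over the 8 arrays, with lines joining the values of a probe only to guide the eye. LTP1 and lipid transfer protein I run together and sit above 0 in P. armeniaca, while LTP2 and lipid transfer proteins 3 and III run together, lowest in Manao and highest on Ruantiaohongmei replicate 2.

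The lipid transfer probes thus fell into 2 groups by profile. Over the 8 arrays, Pearson's r was 0.993 between LTP1 and lipid transfer protein I. It was 0.9995 between LTP2 and lipid transfer protein III, 0.996 between LTP2 and lipid transfer protein 3, and 0.995 between lipid transfer proteins 3 and III. Between LTP1 and LTP2 it was -0.44. The difference in log2 level between LTP2 and lipid transfer protein III stayed between -0.98 and -0.89 on all arrays. These coefficients describe 8 arrays that share the species split, and no p is attached to them. Probes for related sequences can bind the same transcripts, and the probe sequences were not used here, so whether the probes of a group report separate genes was not tested.

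The groups also differed in how far the 2 arrays of a cultivar lay apart. In Ruantiaohongmei, replicate 2 exceeded replicate 1 by 1.28, 1.31 and 1.30 on the log2 scale for LTP2, lipid transfer protein 3 and lipid transfer protein III. In Xiyeqing the same probes were lower on replicate 2, by differences of -0.82, -0.80 and -0.85. For LTP1 and lipid transfer protein I these replicate differences ranged from -0.23 to 0.16 over the 4 cultivars. Within-cultivar SDs were 0.56 to 0.57 for the first 3 probes, against 0.12 for LTP1, 0.10 for lipid transfer protein I and a median of 0.28 over all tested probes.

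The comparison of Ruantiaohongmei with Manao, which lies within slide row 1, and that of Xiyeqing with Zhenkui, within row 2, share no arrays and give the species difference in separate cultivars. For LTP1 the log2 difference was -0.85 ± 0.20 (SE) in the first pair and -0.89 ± 0.20 (SE) in the second. For lipid transfer protein I it was -0.47 ± 0.20 (SE) and -0.60 ± 0.20 (SE). Both pairs thus gave like values for these probes. For LTP2 the log2 difference was 1.78 ± 0.45 (SE) between Ruantiaohongmei and Manao and 0.27 ± 0.45 (SE) between Xiyeqing and Zhenkui. Lipid transfer protein 3 gave 1.84 ± 0.46 (SE) and 0.28 ± 0.46 (SE), and lipid transfer protein III 1.79 ± 0.46 (SE) and 0.20 ± 0.46 (SE). Single arrays decided much of these values. Without Ruantiaohongmei replicate 2, on which the oleosin seed probe was also highest, the first-pair differences were 1.14, 1.18 and 1.14 in that order, and without replicate 1 they were 2.42, 2.49 and 2.44. In the second pair they were -0.14, -0.12 and -0.22 without Xiyeqing replicate 1, and 0.67, 0.68 and 0.63 without its replicate 2. The part of seed tissue in these values was not tested. The difference between the pairs was 1.51 ± 0.64 (SE) for LTP2 and did not pass the adjusted threshold for any member, where 0.197% of all tested probes did. At an unadjusted p under 0.05, 2 members and 697 probes passed in that limma contrast. Each pair lies in its own slide row, so the 2 cannot be told apart.

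**Figure D3:**
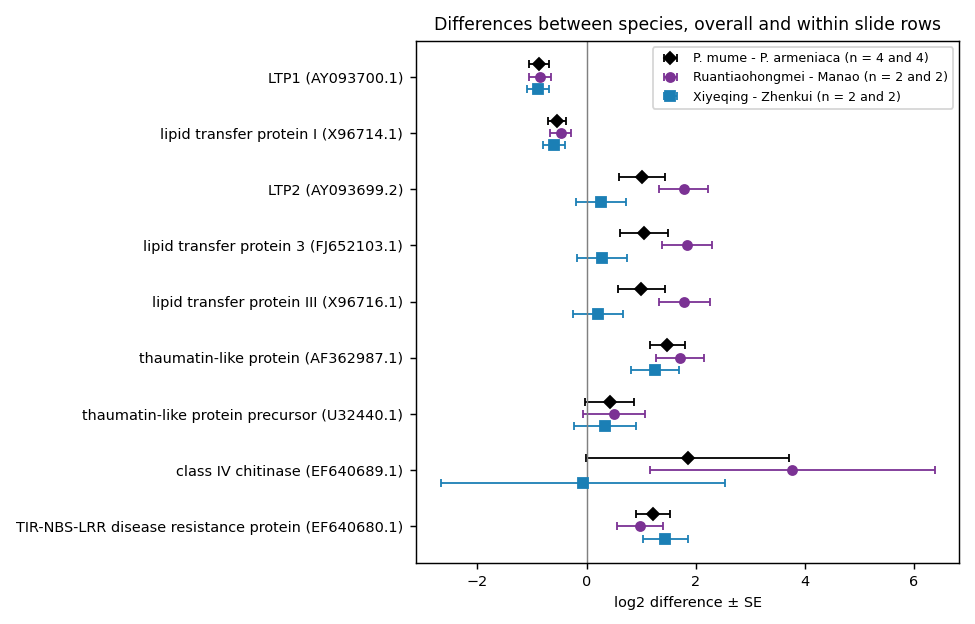
Log2 differences (x axis, with standard errors) of the 9 probes between the species over all 8 arrays (black), between Ruantiaohongmei and Manao (purple) and between Xiyeqing and Zhenkui (blue). LTP1 and lipid transfer protein I lie left of 0 in each comparison, LTP2 and lipid transfer proteins 3 and III lie farther right in the first cultivar pair than in the second, and the class IV chitinase has by far the widest bars, with an SE of 1.86 between the species.

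The thaumatin-like protein of peach, AF362987.1, had the largest species difference among the members whose arrays did not overlap. Its log2 level was 0.55 and -0.83 in Ruantiaohongmei, -0.29 and -0.09 in Xiyeqing, -1.80 and -1.90 in Manao, and -1.17 and -1.72 in Zhenkui. Every P. mume array lay above every P. armeniaca array. The mean level was -0.17 ± 0.57 (SD, n = 4) in P. mume and -1.65 ± 0.33 (SD, n = 4) in P. armeniaca, a log2 difference of 1.48 ± 0.31 (SE), or 2.79-fold higher signal in P. mume. Within P. mume the cultivar means of -0.14 and -0.19 were close, and the Ruantiaohongmei arrays enclosed those of Xiyeqing. The Manao arrays lay below those of Zhenkui. The log2 difference was 1.71 ± 0.44 (SE) between Ruantiaohongmei and Manao and 1.25 ± 0.44 (SE) between Xiyeqing and Zhenkui. The first of these was 1.02 without Ruantiaohongmei replicate 1 and 2.41 without replicate 2. The authors' deposited lists hold this probe in 5 of 7 comparisons, at 2.31-fold to 3.22-fold.

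The thaumatin-like protein precursor of sweet cherry, U32440.1, did not share its separation of the species. Its log2 level was -0.63 and -1.99 in Ruantiaohongmei, -1.06 and -0.35 in Xiyeqing, -1.84 and -1.79 in Manao, and -0.38 and -1.70 in Zhenkui. Both low and high values occurred in each species. The means were -1.01 ± 0.72 (SD, n = 4) in P. mume and -1.43 ± 0.70 (SD, n = 4) in P. armeniaca, and the log2 difference of 0.42 ± 0.45 (SE) was smaller than its error. Pearson's r between the thaumatin-like probes was 0.663 over the 8 arrays. The authors' deposited lists hold U32440.1 for Manao against Xiyeqing alone, at 2.00-fold, which makes it the member nearest to the bound of 2-fold. Probes just outside that bound carry no description, so their values are not given.

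The TIR-NBS-LRR protein EF640680.1 was the only immune receptor among the members. Its log2 level was 0.39 and -0.84 in Ruantiaohongmei, 0.61 and 0.02 in Xiyeqing, -1.35 and -1.06 in Manao, and -1.03 and -1.23 in Zhenkui. All P. mume arrays lay above all P. armeniaca arrays, with Ruantiaohongmei replicate 2 nearest to them. The mean level was 0.05 ± 0.64 (SD, n = 4) in P. mume and -1.16 ± 0.15 (SD, n = 4) in P. armeniaca, a log2 difference of 1.21 ± 0.31 (SE), or 2.31-fold higher signal in P. mume. The log2 difference was 0.98 ± 0.42 (SE) between Ruantiaohongmei and Manao and 1.44 ± 0.42 (SE) between Xiyeqing and Zhenkui. The first of these was 0.36 without Ruantiaohongmei replicate 1 and 1.60 without replicate 2. Its species call was lost without Ruantiaohongmei replicate 1 or without Xiyeqing replicate 1, at an adjusted p of up to 0.0524 in the limma fit, and with either array left out 2 of 9 members were called. Over the 8 arrays its r with the thaumatin-like protein AF362987.1 was 0.902.

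The class IV chitinase EF640689.1 varied more between arrays of one cultivar than between species. Its log2 level was -2.85 and 5.25 in Ruantiaohongmei, -3.30 and 1.91 in Xiyeqing, -2.48 and -2.65 in Manao, and 0.32 and -1.58 in Zhenkui. It was high on Ruantiaohongmei replicate 2, intermediate on Xiyeqing replicate 2 and Zhenkui replicate 1, and low on the first arrays of both P. mume cultivars and on both Manao arrays. Replicate 2 exceeded replicate 1 by 8.10 on the log2 scale in Ruantiaohongmei, or 274-fold, and by 5.21 in Xiyeqing, or 36.9-fold. Replicate 2 was lower in Zhenkui, by a difference of -1.90, and the Manao arrays differed by -0.18. A replicate difference of that size was reached by 4 probes in Ruantiaohongmei, itself included, and by 22 in Xiyeqing. Its within-cultivar SD of 3.47 was the second largest among all tested probes, after the lipoxygenase EF568783.1 at 3.50. That lipoxygenase was well above background on only 2 P. mume and 3 P. armeniaca arrays. The species means of the chitinase were 0.25 ± 4.08 (SD, n = 4) and -1.60 ± 1.36 (SD, n = 4). Its log2 difference of 1.85 ± 1.86 (SE) was thus no larger than its error. The difference was 3.12 without Ruantiaohongmei replicate 1 and 0.10 without replicate 2. The authors' deposited lists hold this probe in 6 of 7 comparisons, at up to 12.2-fold between Manao and Ruantiaohongmei.

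**Figure D4:**
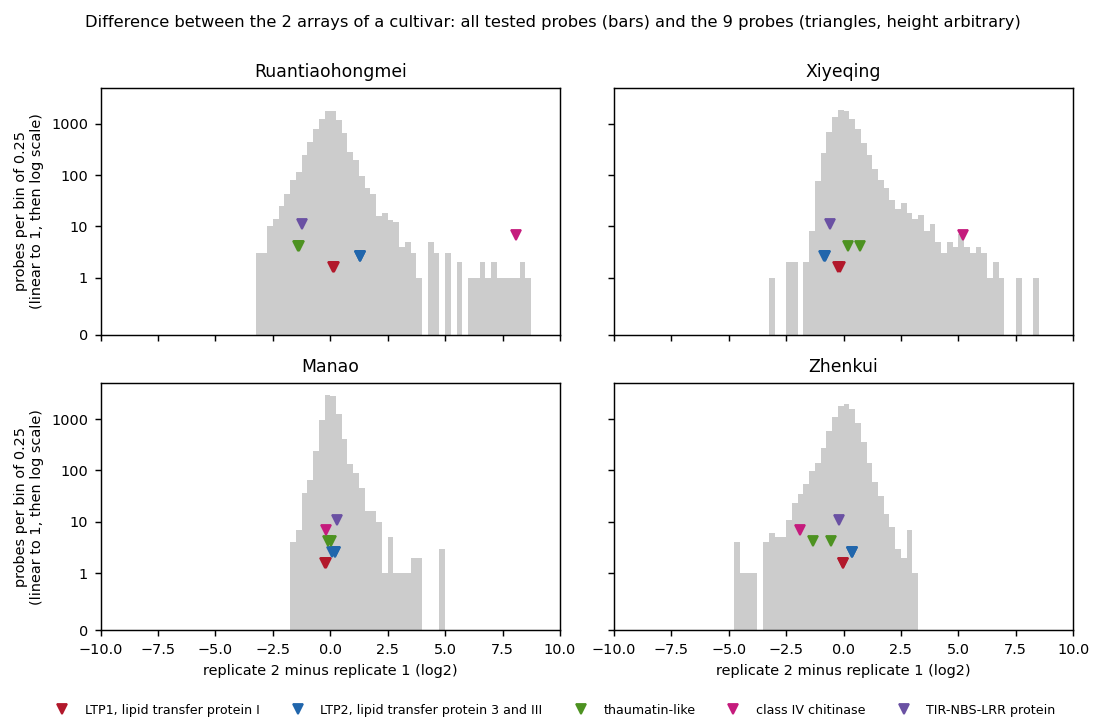
Difference in log2 level between replicate 2 and replicate 1 of each cultivar, for all tested probes (grey bars, number of probes per bin of 0.25, on an axis that is linear up to 1 and logarithmic above) and for the 9 members (coloured triangles, whose height has no meaning). The class IV chitinase lies at 8.10 in Ruantiaohongmei and 5.21 in Xiyeqing, in the far right tail of all probes, and at -0.18 in Manao.

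Probes with the profile most like that of the chitinase were sought among 206 other probes that name a protein and were well above background on all arrays, a choice made for this member after its values were seen. They were ACC synthase 4 (EU034653.1), an enzyme of ethylene synthesis, at r = 0.920, another ACC synthase (AF467782.1) at 0.914, and the class 4 pathogenesis-related protein EF640658.1 at 0.857. ACC synthase 4 had a log2 level of 2.79 on Ruantiaohongmei replicate 2 and of -4.62 to -1.86 on the other 7 arrays. The class 4 pathogenesis-related protein stood at 5.18 on that array, at 3.58 on Xiyeqing replicate 2, at 2.89 on Ruantiaohongmei replicate 1 and at 2.80 on Zhenkui replicate 1, and between -0.04 and 0.85 on the other 4 arrays. The beta-1,3-glucanase AJ002748.1, an enzyme that cuts a glucan of fungal walls, was picked after its values were seen. It was well above background on 7 arrays, so it was not among the 206 probes. It differed between replicates by 2.57 in Ruantiaohongmei, 8.42 in Xiyeqing and -2.94 in Zhenkui, the same directions as the chitinase. Another beta-1,3-glucanase, EF177488.1, went the other way in Ruantiaohongmei, at log2 levels of 1.42 on replicate 1 and 0.68 on replicate 2. In Xiyeqing it rose from -0.34 to 1.21 and in Zhenkui it fell from 0.37 to -0.55, as the chitinase did.

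Seed probes were highest on the array where the chitinase was highest. The oleosin AY962832.1, a protein of seed oil bodies, had a log2 level of 1.06 on Ruantiaohongmei replicate 2 and of -6.40 to -5.14 on the other 7 arrays. The almond seed storage globulin pru2 (X78120.1), picked after its values were seen, had 0.77 there and -8.36 to -4.99 elsewhere. On Xiyeqing replicate 2, where the chitinase was intermediate at 1.91, the oleosin stood at -5.14 and pru2 at -6.18. The part of seed tissue in the chitinase level was not tested.

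**Figure D5:**
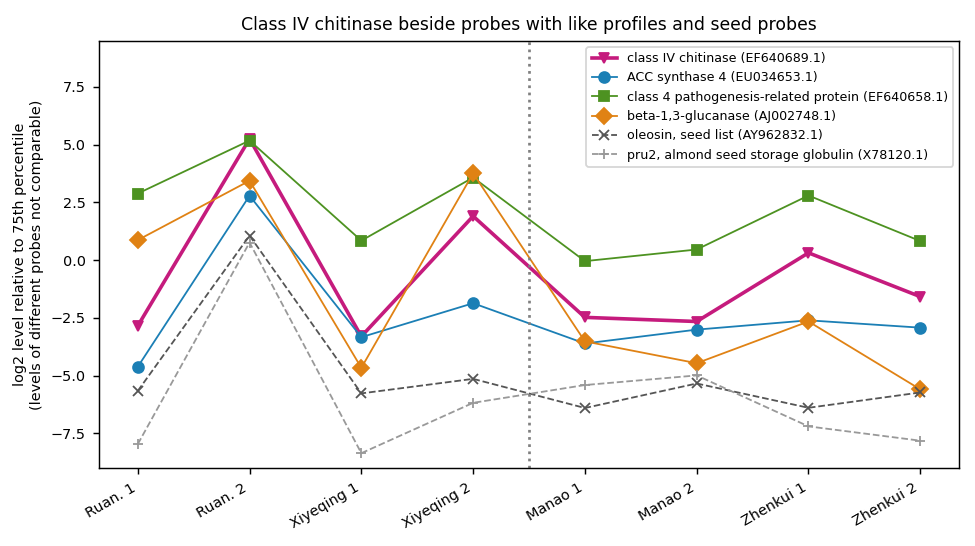
Log2 level, relative to each array's 75th percentile, of the class IV chitinase (thick line), of 3 probes with like profiles or directions, and of 2 seed probes (dashed) on each array, with lines drawn only to guide the eye and levels of different probes not comparable. All 6 peak or lie high on Ruantiaohongmei replicate 2, at 5.25 for the chitinase and 1.06 for the oleosin, while on Xiyeqing replicate 2 the seed probes stay at -5.14 and -6.18. The oleosin is well above background on 5 arrays and pru2 on 3.

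Between the cultivars of one species, no member passed the adjusted threshold. For Ruantiaohongmei against Xiyeqing 0.559% of all tested probes passed. No member and 668 probes had an unadjusted p under 0.05 in limma. LTP1 and lipid transfer protein I were lower in Ruantiaohongmei without overlap, as were 18% of probes, at log2 differences of -0.34 ± 0.20 (SE) and -0.19 ± 0.20 (SE). The other 7 members overlapped. For Manao against Zhenkui 0% of tested probes passed the adjusted threshold in limma, and 3 members and 1041 probes had an unadjusted p under 0.05. Both Manao arrays lay below both Zhenkui arrays for 8 of the 9 members, where 29.6% of probes did so. The exception was the TIR-NBS-LRR protein, at a log2 difference of -0.07 ± 0.42 (SE). The differences of the 8 ran from -0.31 ± 0.20 (SE) for lipid transfer protein I to -1.34 ± 0.46 (SE) for lipid transfer protein 3. The chitinase gave -1.94 ± 2.61 (SE), smaller than its error. The lipid transfer probes among the 8 ran in groups of like profile, so the 8 may not be separate observations. The authors' deposited list for this pair holds 3 members. Each pair within a species sets a cultivar in slide row 1 against one in row 2, so cultivar and slide row cannot be told apart there. The pairs within a species use the same arrays as the pairs between species.

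Between species within a slide row, 5 members were called for Ruantiaohongmei against Manao, where 21.4% of tested probes were called. The 4 higher in Ruantiaohongmei were LTP2, lipid transfer proteins 3 and III and the thaumatin-like protein AF362987.1, where 8.92% of tested probes were called higher, and LTP1 was called lower, as were 12.5% of probes. Leaving out 1 array changed this count to between 0 and 5, with 0 left without either Manao array, 2 without Ruantiaohongmei replicate 2, and 3 without either Zhenkui array, which enters only through the shared estimate of the spread. For Xiyeqing against Zhenkui 2 members were called, where 28.2% of tested probes were. The TIR-NBS-LRR protein was called higher, as were 12.3% of probes, and LTP1 lower, as were 16% of probes. This count of 2 ran from 0 to 3 with 1 array left out, at 0 without either Zhenkui array or Xiyeqing replicate 2, at 1 without either Manao array or Xiyeqing replicate 1, and at 3 without either Ruantiaohongmei array.

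For the 4 probes chosen by identifier, the 3 named proteins with the most similar profile over the 8 arrays were listed from the same 206 probes. LTP1 and lipid transfer protein I shared all 3 of theirs. These were calreticulin (AF134733.1), a calcium-binding chaperone, at r = 0.977 with LTP1 and 0.979 with lipid transfer protein I, a plasma membrane proton ATPase (AJ271440.1) at 0.974 and 0.976, and the chaperonin HSP60 (AF489695.1) at 0.967 and 0.968. The thaumatin-like protein AF362987.1 was most like the polygalacturonase-inhibiting proteins AY903227.1 (0.940) and EF640696.1 (0.933) and glucose-6-phosphate 1-dehydrogenase DQ451556.1 (0.936). Proteins of the first kind block a fungal enzyme that degrades the plant's cell wall. The polygalacturonase-inhibiting proteins differed between species by 5.59 and 5.80 on the log2 scale, far more than the thaumatin-like protein. Among these 206 non-member probes the TIR-NBS-LRR protein was most like an O-methyltransferase (GU339212.1, 0.874), the hexose transporter stp2 (AF367455.1, 0.851) and DQ451556.1 (0.850). All 3 lay below its r of 0.902 with the member AF362987.1.

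The same measure for the other members, taken after their values were seen, placed LTP2 and lipid transfer proteins 3 and III nearest to the magnesium chelatase H subunit FJ842115.1, an enzyme of chlorophyll synthesis, at r = 0.836, 0.832 and 0.820. Next came the mandelonitrile lyase MDL4 (AF053884.1), which releases cyanide from cyanogenic compounds, at 0.788, 0.781 and 0.771. The thaumatin-like protein precursor U32440.1 had its highest r among these 206 non-member probes, 0.526, with an S-adenosylmethionine decarboxylase (EF640666.1), below its r of 0.663 with the member AF362987.1. All of these coefficients rest on 8 arrays that share the species split.

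Of 30 tested probes for other described defence and allergen proteins, 23 were higher in P. mume, 2 were lower and 5 did not pass the threshold, where 15.1% of all tested probes were higher and 21.5% lower. Their median log2 difference was 4.70, against -0.11 over all tested probes. Related probes of 2 families made up 20 of the 23, namely 9 polygalacturonase-inhibiting proteins and 11 PR-10 proteins and allergens. Of the other 10 probes, 3 were higher, all of them peroxidases, 2 were lower and 5 did not pass, with a median of 1.63. The authors chose these probes on the same samples, so the list is not independent evidence of its direction. The highest were the polygalacturonase-inhibiting protein AY903225.1 at 7.22 ± 0.65 (SE) and the cherry allergen AY540509.1 of the PR-10 family at 7.21 ± 0.60 (SE). The lower ones were defensin 1 of peach (AY078426.1), a small antimicrobial peptide, at -1.98 ± 0.36 (SE), and the endo-1,4-glucanase eg4 (AJ890498.1) at -1.52 ± 0.24 (SE). The enzyme eg4 acts on the plant's own cell wall and entered the list through its name. So did the endo-1,4-glucanase pcel1 (X96853.1), which did not pass, at -0.21 ± 0.54 (SE). The beta-1,3-glucanase AJ002748.1 at 4.91 ± 1.77 (SE) and the class 4 pathogenesis-related proteins AF362989.1 at 2.17 ± 0.94 (SE) and EF640658.1 at 2.11 ± 0.93 (SE) did not pass. The members spanned log2 differences from -0.87 to 1.85, below those of most probes in the list.

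Among the other proteins of lipid metabolism, 7 of 8 described probes were tested, and 1 was higher in P. mume, 3 were lower and 3 did not pass, where 15.1% of all tested probes were higher and 21.5% lower. The median log2 difference was 1.43, the value of the lipoxygenase EU439430.1, which had an SE of 1.78 and did not pass. All 3 probes that did not pass were highest on Ruantiaohongmei replicate 2, at log2 levels of 1.06 for the oleosin, 1.27 for the lipoxygenase EF568783.1 and 1.93 for EU439430.1, and lay below 0 on the other 7 arrays. The higher one was the lipoxygenase AJ418043.2 at 1.45 ± 0.24 (SE), an enzyme that oxidises unsaturated fatty acids. The lower ones were phospholipase D alpha (EU117127.1) at -0.85 ± 0.19 (SE), the omega-3 desaturase AF517831.2 at -1.36 ± 0.47 (SE), and phytoene desaturase (AY822065.1) at -1.14 ± 0.19 (SE), which belongs to carotenoid synthesis and entered through its name. This list too was chosen by the authors on these samples.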

How the data were processed

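RNA was labelled with Cy3 and hybridised to 1-colour Agilent arrays, and scanner images were read with Feature Extraction 10.7.1.1, per the file headers, while the submitters' processing notes name version 8.1. Values were the processed intensity of each spot in the deposited scanner files, background-subtracted by that software. The authors' deposited log2 table was an alternative. Its columns have medians of 6.71 to 6.81 and correlate at 0.987 to 0.991 with the log2 scanner values of the same array. No source used here states its normalization. Probe descriptions came from the authors' deposited lists, which also give a ratio and fold per comparison, filtered at 2-fold on the authors' own values. In the values used here, a listed probe can fall under 2-fold.

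Each intensity was log2-transformed, and the 75th percentile over the 15208 non-control spots of the array was subtracted. Spots of one probe were averaged. Testing required a probe to exceed background clearly on the 2 arrays of any cultivar, which left 9125 probes. Species were compared with limma 3.58.1 in R 4.3.3, taking cultivar as a random block (consensus correlation of 0.081), and cultivars in a fit of the 4 cultivar means. Benjamini-Hochberg adjustment ran over all tested probes. Counts of overlap use the 9121 of these probes that have a value on all 8 arrays. P-values and standard errors measure the spread between these arrays, whose number limits the precision. At a correlation this low, the species fit counts the 2 arrays of a cultivar as nearly independent. Its errors thus mix the spread within and between cultivars, and with 2 cultivars per species they can be too small. For LTP1 the within-cultivar SD was 0.12, while the log2 difference was -0.34 for Ruantiaohongmei minus Xiyeqing and -0.38 for Manao minus Zhenkui. The species fit was run on simulated data for 9121 probes, of which 200 were changed by 2 log2 units. It recovered 91% of these and made 19 false calls. Recovery at the smaller log2 differences of the called members, -0.87, -0.54, 1.48 and 1.21, was not tested. Nor was the fit tested with as many changed probes as the 3339 called between the species.

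Members and lists were chosen with earlier results of these data known. Members were the probes matched by description or identifier. The most similar profiles were named for the 4 identifiers by Pearson's r, and in each list up to 3 called probes each way with the largest difference could be named. Other probes were named after their values were seen. Alternatives were another background correction (normexp with an offset of 50, on the median signal because these files hold no mean signal), quantile normalization, the deposited log2 table, other filters and blocks, and leaving out each array.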

Additional observations from a re-analysis of the deposited data

Results flagged for a closer look

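Within each species the 4 arrays of every member were examined for an array far from the other 3, and 1 of 18 such groups had one. The thaumatin-like protein precursor U32440.1 in P. armeniaca stood at a log2 level of -0.38 on Zhenkui replicate 1. The gap from that array to the nearest of the other 3 was 0.909 of the whole range, above Dixon's critical value for 4 values. Chance alone gives such a value in about 1 of 20 groups.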

How the results depend on the processing

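All 153 species differences of the members kept their sign under the 17 alternatives, and 1 moved beyond the replicate spread, that of lipid transfer protein I, to -0.76 with the authors' deposited log2 table. Members called ran from 4 to 6 of 9 with all arrays and from 2 to 6 with 1 array left out. Probes called over the whole array ran from 2522 with normexp to 3802 with slide row as a block, and from 2533 to 4176 with 1 array left out. LTP1 and the thaumatin-like protein AF362987.1 were called, and the chitinase and U32440.1 were not, under all 17. LTP2 was also called with quantile normalization, and LTP2 and lipid transfer protein 3 with the deposited table. Members called for Xiyeqing against Zhenkui ran from 1 to 3 with all arrays. Of 396 values for pairs of cultivars, 346 stayed within the replicate spread, 50 moved and 372 kept their sign. Without Ruantiaohongmei replicate 2 the chitinase difference between Ruantiaohongmei and Manao turned from 3.77 to -0.28. The cause of these changes was not tested. With the labels' replicate number as a block, 3560 probes and 4 members were called. Deviations of same-numbered arrays correlated at -0.18 to 0.39 between cultivars, so the numbers were not taken to pair the arrays.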
